A study of Homo sapiens with 9 samples.

Results

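The hedgehog receptors, co-receptors and GLI factors are 10 genes that receive the hedgehog signal at the cell surface and carry it to the nucleus. They were taken by name: the co-receptors BOC, CDON and GAS1, the receptor PTCH1, the transducer SMO, the ciliary receptor GPR161, the GLI-binding protein SUFU and the transcription factors GLI1, GLI2 and GLI3. All 10 were found among the 21417 gene symbols of the table, and all 10 passed the minimum for testing (0.5 RPKM on average over the 9 libraries), with 14473 genes tested in all. RPKM is a read number divided by transcript length and by the depth of the library. This puts genes and libraries on 1 scale, but it does not remove differences between libraries in RNA composition or GC content. Each gene was represented by its transcript with the highest mean.

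The libraries came from H9, an established human embryonic stem cell line, with 3 libraries per group. Neuroectoderm, the precursor of the nervous system, was taken at day 5 of culture with NOGGIN (200 nM), which blocks BMP ligands, and SB431542 (10 µM), an inhibitor of activin and Nodal receptors. Mesendoderm, the precursor of mesoderm and endoderm, was taken at day 5 of culture in mTeSR1 medium with BMP4 at 5 ng/ml. Undifferentiated cells (hESC) were taken at day 0 from mTeSR1 medium on Matrigel. The labels name no hedgehog ligand, agonist or inhibitor for any group, and separate cultures are not stated. The p-values here therefore reflect how far these libraries differed from each other, and that spread may be technical.

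In the absence of ligand, PTCH1 keeps SMO out of the primary cilium, and GLI2 and GLI3 are held by SUFU and cut into repressor forms, GLI3 most of all. Ligand bound to PTCH1 and a co-receptor frees SMO, which turns GLI2 and GLI3 into activators. GLI1 and PTCH1 are themselves target genes, and in many vertebrate tissues GLI1 RNA is used as a readout of the pathway, while the co-receptor genes Boc, Cdon and Gas1 are repressed by hedgehog signalling in the mouse neural tube. RNA levels of the other members describe which parts of the machinery are transcribed, and say nothing of protein cleavage or of the position of SMO in the cilium.

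PTCH1 is both receptor and target, and a sequence from its upstream region is shown here. The consensus site of the GLI zinc fingers was searched as GACCACCCA, or TGGGTGGTC on the other strand, in windows from 250 bases before to 50 after annotated gene starts, from RefSeq on GRCh38.p14. Of 35116 windows 0.236% hold it. Of 10 members 8 had windows in that table, 20 windows in all, and 1 window holds the site, at chr9:95509217-95509516 on the minus strand, where the site begins 172 bases before a start of PTCH1. The windows at the other PTCH1 starts hold no match. The window with the match is shown with the site in capitals, beside the window of GAS1, at chr9:86947457-86947756 on the minus strand, as the co-receptor with a single annotated start and no match.

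PTCH1: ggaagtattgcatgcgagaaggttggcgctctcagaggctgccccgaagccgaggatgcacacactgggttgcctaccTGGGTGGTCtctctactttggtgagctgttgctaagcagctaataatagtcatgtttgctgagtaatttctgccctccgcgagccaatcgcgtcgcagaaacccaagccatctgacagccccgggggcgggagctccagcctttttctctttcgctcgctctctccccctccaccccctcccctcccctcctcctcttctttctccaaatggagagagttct
GAS1: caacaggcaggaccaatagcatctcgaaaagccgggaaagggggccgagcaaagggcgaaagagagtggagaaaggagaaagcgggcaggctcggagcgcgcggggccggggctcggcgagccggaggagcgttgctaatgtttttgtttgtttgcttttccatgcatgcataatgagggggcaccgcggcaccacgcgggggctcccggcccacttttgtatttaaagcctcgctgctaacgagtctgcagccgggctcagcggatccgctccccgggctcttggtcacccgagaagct

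The match is a description of these letters and does not show binding. GLI1 and GLI3 were not among the windows used here.

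Markers went with the labels in part. Summed over 8 neuroectoderm markers the level was 224.0 to 258.7 RPKM in neuroectoderm, 8.18 to 9.21 in mesendoderm and 41.8 to 48.3 in hESC, although LHX2 and SIX3 averaged 0.123 and 0.0833 RPKM in neuroectoderm. Most of the sums in neuroectoderm and hESC was OTX2 (175.7 and 36.7 on average), and FABP7 averaged 7.09 in neuroectoderm against 7.31 in hESC. PAX6, SOX1, ZIC1 and HES5 averaged 28.4, 21.1, 7.38 and 6.17 in neuroectoderm against 0.0933, 0.767, 0.0367 and 0.123 in hESC. Summed over 7 mesendoderm markers it was 1.35 to 1.54 in neuroectoderm, 184.3 to 230.3 in mesendoderm and 1.15 to 1.56 in hESC. The 7 pluripotency markers summed to 351.0 to 366.6 RPKM in neuroectoderm, 379.0 to 433.4 in mesendoderm and 750.8 to 827.7 in hESC. Of these, ZFP42 averaged 82.6 in mesendoderm against 83.7 in hESC. LIN28A made up most of the neuroectoderm sum (274.7 on average, against 306.9 in hESC). NANOG, TDGF1 and L1TD1 averaged 0.127, 0.06 and 0.97 RPKM in neuroectoderm. In mesendoderm they averaged 12.2, 23.7 and 59.6, and in hESC 22.03, 56.3 and 127.7. Against hESC, 5 of the 7 were called lower in neuroectoderm and 6 in mesendoderm, where 22.3% and 18.1% of all tested genes were. The 6 endoderm markers summed to 6.28 to 12.4 RPKM in neuroectoderm, 56.2 to 83.1 in mesendoderm and 0.85 to 1.58 in hESC. Most of the mesendoderm sum was CER1 (59.2 on average), and most of the neuroectoderm sum was CXCR4 (10.2). In mesendoderm GATA4 and GATA6 averaged 3.72 and 4.82, CXCR4 0.783, SOX17 0.22 and FOXA2 0.0367. The 7 amnion and trophoblast markers summed to 65.8 to 96.1 RPKM in mesendoderm, against 5.21 to 7.38 in hESC, with CGA averaging 0.0433 in mesendoderm. Neuroectoderm had 52.9 to 89.6 RPKM of 6 neural crest markers, most of it PAX3, against 12.9 to 14.5 in hESC. Of the 6, PAX3 and TFAP2B passed the minimum through neuroectoderm alone and are given with no test. They averaged 68.1 and 1.75 RPKM in neuroectoderm against 0.0633 and 0.0167 in hESC. Of the others, SNAI2 (1.95 RPKM in neuroectoderm against 0.157 in hESC) was called higher. FOXD3 (0.857 against 5.32) and ETS1 (0.807 against 6.94) were called lower, and SOX10 averaged 0.917 in neuroectoderm. In neuroectoderm against hESC 21.9% of all tested genes were called higher and 22.3% lower. Libraries had denominators of 36.8 to 70.0 M reads. Within groups, deviations of genes from their group mean fell with GC content in neuroectoderm replicate 1, mesendoderm replicate 1 and hESC replicate 2 (Spearman -0.595, -0.318 and -0.649 across genes) and went with it in the other libraries (0.215 to 0.619). Of the 10 members 9 were lowest in neuroectoderm replicate 1 among the neuroectoderm libraries. The share of all tested genes lowest in this library was not counted, so the 9 are not read as a trait of the members. Small RNA genes held 72.9% of the summed RPKM in that library, against 52.5% and 61.2% in the other neuroectoderm libraries, 52.9% to 58.3% in mesendoderm and 58.6% to 69.5% in hESC. What part these markers, the cell mixture, GC content or small RNA have in the values below was not tested, and in bulk RNA more cells of a type and more RNA per cell cannot be told apart.

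**Figure D1:**
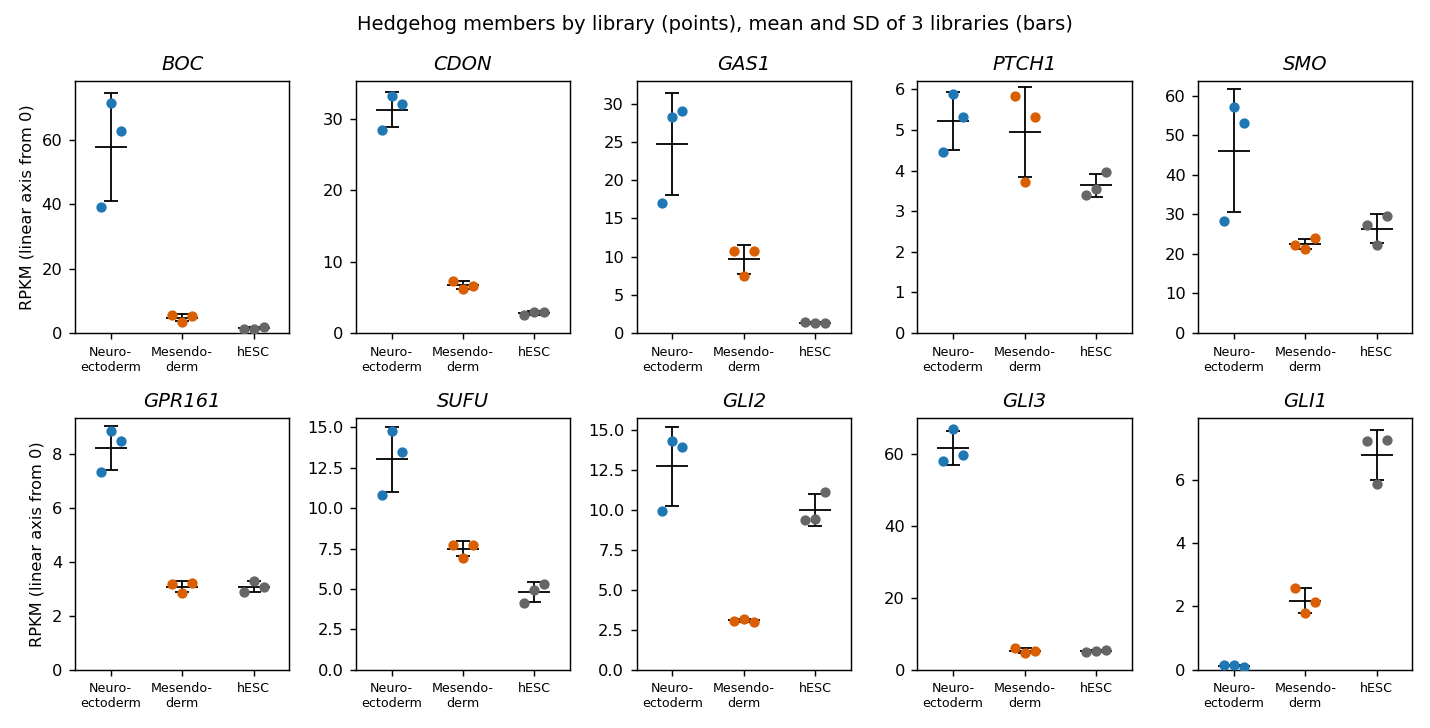
RPKM of the 10 members (linear axes that start at 0, a different scale for each gene) in neuroectoderm, mesendoderm and hESC, with a point per library and bars for the mean and SD of 3 libraries. BOC, CDON and GAS1 step down through the 3 groups, while GLI1 runs the other way and stands at 0.1 to 0.15 RPKM in neuroectoderm.

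Neuroectoderm carried far more transcript of the co-receptors and of GLI3 than undifferentiated cells, and almost none of GLI1. Of the 10 members 7 rose (BOC, CDON, GAS1, GLI3, SUFU, GPR161 and SMO), 1 fell (GLI1), and GLI2 and PTCH1 did not pass the test, which was limma with Benjamini-Hochberg adjustment over all genes tested at an adjusted p under 0.05. Over all tested genes 21.9% rose and 22.3% fell, 44.2% together. The libraries of the groups did not overlap for 7 members that were higher, PTCH1 among them, and for GLI1, against 25.4% higher and 26.5% lower over all genes, 51.9% together. The median log2 difference was 1.22 over the members and -0.024 over all genes. Without the 3 libraries whose deviations fell with GC content, 9 rose and 1 fell.

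The co-receptors help ligand to bind PTCH1 and all 3 of them passed the test in every comparison. BOC, an immunoglobulin-family surface protein, was at 39.1, 71.5 and 62.7 RPKM in neuroectoderm, 5.63, 3.44 and 5.25 in mesendoderm and 1.29, 1.37 and 1.78 in hESC. Every neuroectoderm library was above every mesendoderm library, and these above every hESC library. Its mean in neuroectoderm was 39.0 times that of hESC (log2 difference 4.53 ± 0.23 SE, limma adjusted p = 1.06e-06) and 12.1 times that of mesendoderm (3.33 ± 0.23, adjusted p = 4.49e-06), and its mean in mesendoderm was 3.23 times that of hESC (1.20 ± 0.23, adjusted p = 0.00386). All log2 differences are of log2(RPKM + 1), a scale that understates changes of low genes.

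CDON, the relative of BOC, stood at 28.5, 33.2 and 32.1 RPKM in neuroectoderm, 7.30, 6.17 and 6.60 in mesendoderm and 2.54, 2.99 and 2.95 in hESC. The groups again did not overlap, and the libraries of each lay close together. The level in neuroectoderm was 11.1 times that of hESC (3.07 ± 0.10, limma adjusted p = 1.37e-07), and in mesendoderm 2.37 times that of hESC (1.01 ± 0.10, adjusted p = 9.71e-05). Neuroectoderm against mesendoderm gave 4.67-fold (2.07 ± 0.10, adjusted p = 5.80e-07). GAS1, a lipid-anchored co-receptor of another family, had 17.1, 28.2 and 29.1 RPKM in neuroectoderm, 10.7, 7.50 and 10.7 in mesendoderm and 1.45, 1.30 and 1.25 in hESC. It was the co-receptor with the largest rise in mesendoderm, 7.24-fold over hESC (2.18 ± 0.21, limma adjusted p = 5.97e-05), and it rose 18.6-fold in neuroectoderm over hESC (3.43 ± 0.21, adjusted p = 2.57e-06). The difference between the lineages was 2.57-fold (1.25 ± 0.21, adjusted p = 0.00102). All 9 of these co-receptor calls held under every alternative run, including those that leave out a library. In the GENCODE 29 annotation BOC shares 513 exon bases with a gene on the opposite strand, CFAP44, as PTCH1 and SMO do with antisense genes (193 to 456 and 129 bases). The sources used here do not say whether counting used strand, and without it such reads cannot be told apart.

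The receptor and the transducer changed less. PTCH1, which holds SMO in check, had 4.46, 5.89 and 5.33 RPKM in neuroectoderm, 5.84, 3.71 and 5.33 in mesendoderm and 3.39, 3.56 and 3.96 in hESC. The neuroectoderm libraries lay above those of hESC, while mesendoderm overlapped with both. Neither lineage passed the test against hESC, with 0.42 ± 0.15 in neuroectoderm (limma adjusted p = 0.0501) and 0.35 ± 0.15 in mesendoderm (adjusted p = 0.111), and the lineages differed by 0.07 ± 0.15 (adjusted p = 0.706). The first of these lay at the threshold and passed it in 10 of 27 alternatives, with adjusted p from 0.0184 without mesendoderm replicate 2 to 0.0497 with a minimum of 1 RPKM. The second passed without mesendoderm replicate 2 (0.51, adjusted p = 0.0185).

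SMO, the membrane protein that PTCH1 restrains, was at 28.3, 57.0 and 53.0 RPKM in neuroectoderm, 22.3, 21.3 and 23.9 in mesendoderm and 27.2, 22.3 and 29.6 in hESC. Neuroectoderm replicate 1 lay within the range of hESC, and the other neuroectoderm libraries were well above it. The rise over hESC was 1.75-fold (0.73 ± 0.24, limma adjusted p = 0.0376), and it was lost in 10 of 21 alternatives. These include the replicate block (adjusted p = 0.0516) and the fits without neuroectoderm replicate 2 or 3, any mesendoderm library or any hESC library (0.0551 to 0.122), while without neuroectoderm replicate 1 the difference was 1.04 ± 0.13 with adjusted p = 2.51e-04. Against mesendoderm SMO was 2.05-fold higher in neuroectoderm (0.94 ± 0.24, adjusted p = 0.0116), a call that held throughout. Mesendoderm against hESC gave -0.21 ± 0.24 (adjusted p = 0.549), which passed without the 3 libraries whose deviations fell with GC content (-0.32, adjusted p = 0.0314).

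GPR161 raises cAMP in the cilium and restrains the pathway in the mouse. It had 7.32, 8.87 and 8.49 RPKM in neuroectoderm, 3.17, 2.85 and 3.21 in mesendoderm and 2.90, 3.28 and 3.07 in hESC. Its level was set apart in neuroectoderm, with 2.67-fold over hESC (1.17 ± 0.10, limma adjusted p = 1.68e-05) and 2.67-fold over mesendoderm (1.18 ± 0.10, adjusted p = 1.18e-05), while mesendoderm and hESC overlapped (-0.0025 ± 0.096, adjusted p = 0.987). SUFU, which binds GLI proteins and keeps them from the nucleus, had 10.8, 14.8 and 13.5 RPKM in neuroectoderm, 7.75, 6.94 and 7.75 in mesendoderm and 4.16, 4.93 and 5.33 in hESC. The 3 groups did not overlap. SUFU rose 2.71-fold in neuroectoderm (1.27 ± 0.13, limma adjusted p = 6.94e-05) and 1.56-fold in mesendoderm (0.55 ± 0.13, adjusted p = 0.0108) over hESC, and neuroectoderm exceeded mesendoderm 1.74-fold (0.72 ± 0.13, adjusted p = 0.00182). The mesendoderm call was lost after removal of small RNA genes and rescaling (0.0905), with transcripts summed (0.0588) and with the other SUFU transcript (0.268), and with that transcript the lineages did not differ past the threshold (0.154).

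The 3 GLI factors moved apart from each other. GLI3, the member most often cut to a repressor, was at 58.1, 67.0 and 59.7 RPKM in neuroectoderm, 6.07, 4.58 and 5.22 in mesendoderm and 4.85, 5.24 and 5.61 in hESC. The neuroectoderm libraries stood alone, and those of mesendoderm and hESC overlapped. The mean was 11.8 times that of hESC (3.33 ± 0.12, limma adjusted p = 1.47e-07) and 11.6 times that of mesendoderm (3.32 ± 0.12, adjusted p = 8.93e-08), and mesendoderm differed from hESC by 0.0081 ± 0.12 (adjusted p = 0.966).

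GLI2, the main activator in the mouse, had 9.89, 14.3 and 13.9 RPKM in neuroectoderm, 3.03, 3.2 and 3 in mesendoderm and 9.35, 9.43 and 11.1 in hESC. Here the mesendoderm libraries were the ones set apart, below all others. GLI2 fell 3.24-fold in mesendoderm against hESC (-1.42 ± 0.14, limma adjusted p = 7.16e-05), and neuroectoderm was 4.13-fold above mesendoderm (1.73 ± 0.14, adjusted p = 1.13e-05). Neuroectoderm against hESC gave 0.31 ± 0.14 and did not pass (adjusted p = 0.106), but passed in 4 of 21 alternatives. Those are quantile normalization (0.0278), median of ratios (0.0274), the fit without the 3 libraries whose deviations fell with GC content (0.00852) and the fit without neuroectoderm replicate 1 (0.00418).

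GLI1, an activator with no known repressor form whose gene is a standard target of the pathway, had 0.15, 0.14 and 0.10 RPKM in neuroectoderm, 2.59, 1.80 and 2.14 in mesendoderm and 7.22, 5.87 and 7.26 in hESC. The groups did not overlap, and the order was the reverse of that of the co-receptors. GLI1 fell 52.2-fold in neuroectoderm against hESC (-2.78 ± 0.12, limma adjusted p = 3.38e-07) and 3.12-fold in mesendoderm against hESC (-1.30 ± 0.12, adjusted p = 4.21e-05), and neuroectoderm was 16.7-fold below mesendoderm (-1.48 ± 0.12, adjusted p = 9.23e-06). Since the pseudocount holds the low values up, the neuroectoderm differences grew to -4.90 against hESC and -3.30 against mesendoderm with a pseudocount of 0.1. From the steps of low values, the neuroectoderm levels rest on about 20.7, 33.3 and 13.98 reads, above the 3 reads that were taken as a floor. All 3 of its transcripts gave the same calls in the 3 comparisons.

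**Figure D2:**
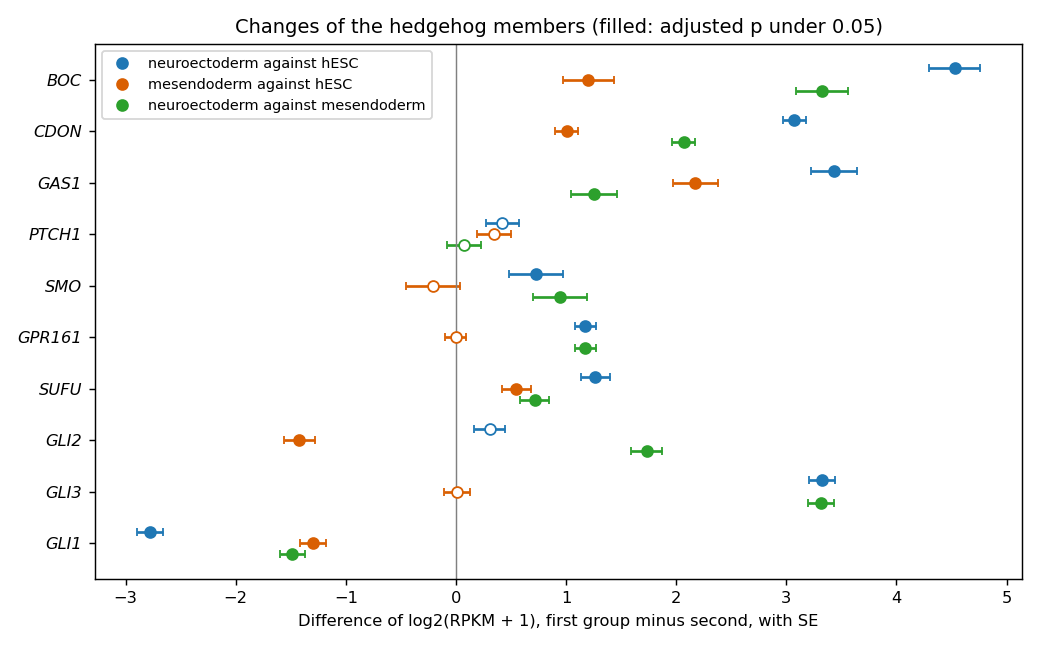
Differences of log2(RPKM + 1) with SE for the 10 members in the 3 comparisons, first group minus second, filled where the adjusted p is under 0.05. The co-receptors lie to the right in all 3 comparisons and GLI1 to the left in all 3, while none of the points of PTCH1 is filled.

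In mesendoderm against hESC 4 members rose (BOC, CDON, GAS1 and SUFU), 2 fell (GLI1 and GLI2) and 4 did not pass. Over all genes 17% rose and 18.1% fell, 35.1% together. The libraries did not overlap for the same 4 and 2 members, against 26% higher and 28.7% lower over all genes, 54.7% together. The median log2 difference was 0.18 over the members and -0.017 over all genes. Between the lineages 8 members were higher in neuroectoderm than in mesendoderm, GLI1 was lower, and PTCH1 did not pass, against 24% higher and 24.1% lower over all genes, 48.1% together. The libraries did not overlap for these 8 and 1 members, against 27.8% and 29.4%, 57.2% together. The member median was 1.22 here and -0.0057 over all genes. Without the 3 libraries whose deviations fell with GC content the counts were 4 higher and 3 lower in mesendoderm against hESC, and 8 and 1 between the lineages. The comparisons with hESC share the hESC libraries and are not independent of each other.

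Ranked by mean RPKM, GLI1 stood among the better transcribed members in hESC, where it averaged 6.78 ± 0.79 RPKM (SD, n = 3) and its libraries lay above those of GLI3, with 5.23 ± 0.38. SMO led with 26.4 ± 3.73, and GLI2 was next with 9.96 ± 0.99. In neuroectoderm GLI3 (61.6 ± 4.75), BOC (57.8 ± 16.7) and SMO (46.1 ± 15.5) were at the top, where BOC overlapped with both others and SMO lay below GLI3, and GLI1 was last, with PTCH1 (5.23 ± 0.72) above it. In mesendoderm SMO led with 22.5 ± 1.33 and GAS1 came next with 9.65 ± 1.86, overlapping with SUFU at 7.48 ± 0.47.

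Ratios within a library put target and machinery side by side without any effect of library scaling, but they do not remove deviations that go with GC content. GLI1 over PTCH1, both of them target genes, was 0.0336, 0.0238 and 0.0188 in neuroectoderm, 0.443, 0.485 and 0.402 in mesendoderm and 2.13, 1.65 and 1.83 in hESC. The 3 groups were separate, and GLI1 exceeded PTCH1 in the hESC libraries alone. GLI3 over GLI2 was 5.87, 4.69 and 4.29 in neuroectoderm, 2.003, 1.43 and 1.74 in mesendoderm and 0.519, 0.556 and 0.505 in hESC. GLI3 exceeded GLI2 in every library of the derived cells and lay below it in every hESC library. GLI3 over GLI1 averaged 487.3 ± 105.0 in neuroectoderm, 2.44 ± 0.10 in mesendoderm and 0.779 ± 0.111 in hESC. PTCH1 over SMO was 0.158, 0.103 and 0.101 in neuroectoderm, 0.262, 0.174 and 0.223 in mesendoderm and 0.125, 0.160 and 0.134 in hESC, so mesendoderm stood above the others. In 11 of 12 comparisons of these ratios the two-sided exact permutation p was 0.1 (0.109 after Benjamini-Hochberg adjustment over the 12), the smallest that 3 libraries against 3 allow, and PTCH1 over SMO in neuroectoderm against hESC gave 0.3. With transcripts summed per gene, which counts shared exons of GLI1 and PTCH1 several times, every ratio but GLI3 over GLI2 moved. GLI1 over PTCH1 then averaged 0.0111 in neuroectoderm, 0.192 in mesendoderm and 0.818 in hESC. GLI3 over GLI1 averaged 163.4 in neuroectoderm, 0.831 in mesendoderm and 0.262 in hESC, and PTCH1 over SMO 0.821 in neuroectoderm, 1.49 in mesendoderm and 0.950 in hESC.

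**Figure D3:**
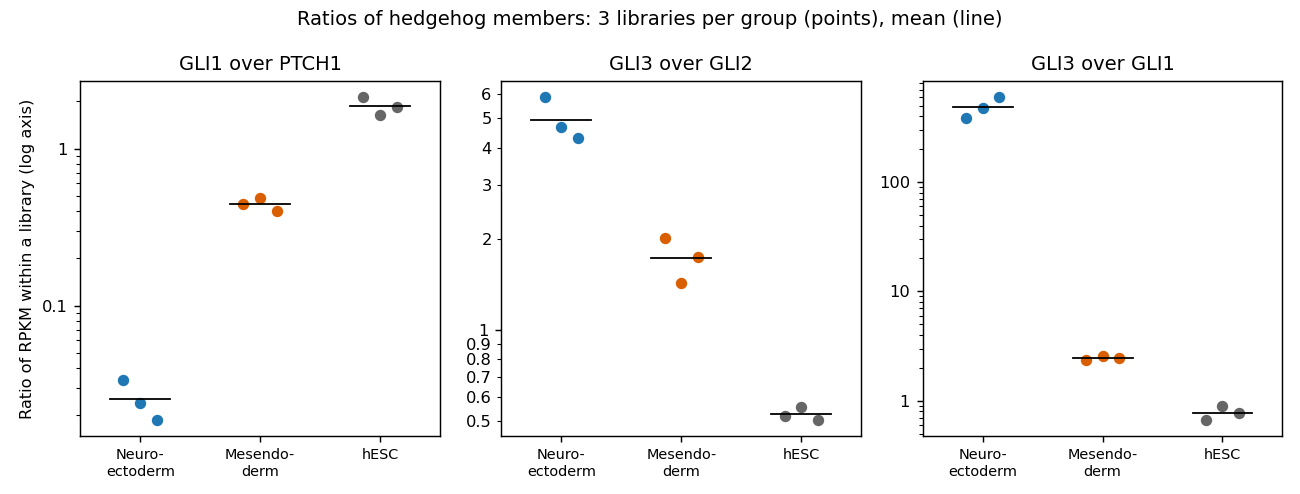
Ratios of RPKM within a library on log axes, with a point per library and a line at the mean of 3 libraries. GLI1 over PTCH1 is lowest in neuroectoderm and highest in hESC, and GLI3 over GLI2 and GLI3 over GLI1 are highest in neuroectoderm and lowest in hESC.

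Transcripts of the ligands were close to nothing in all groups. SHH, the ligand of the notochord and floor plate, had 0.03, 0.08 and 0.03 RPKM in neuroectoderm, 0.02, 0.13 and 0.03 in mesendoderm and 0.06, 0.06 and 0.01 in hESC. IHH, the ligand of visceral endoderm and cartilage, did not exceed 0.06 RPKM and was above 3 reads in 4 of 9 libraries. DHH, the ligand of Sertoli and Schwann cells, ranged from 0.02 to 0.19 RPKM, with its highest value in hESC replicate 1. None of the 3 was tested, being below the minimum. Of the 6 genes on the list that finish and release the ligand 4 passed the minimum, and SCUBE2 did so through neuroectoderm alone, so its levels are given with no test: 6.63 RPKM in neuroectoderm, 0.0733 in mesendoderm and 0.273 in hESC. The other 3 rose in neuroectoderm against hESC, where 21.9% of all genes did. They were the secreted SCUBE3 (7.65 RPKM in neuroectoderm against 0.673 in hESC, 2.35 ± 0.18, limma adjusted p = 1.17e-05), the acyltransferase HHAT (3.17 against 0.237, 1.75 ± 0.11) and the exporter DISP1 (8.74 against 2.98, 1.30 ± 0.14). In mesendoderm against hESC SCUBE3 (1.85 ± 0.18) and HHAT (0.94 ± 0.11) rose, and SCUBE3, HHAT and DISP1 were all higher in neuroectoderm than in mesendoderm, SCUBE3 only just (0.51 ± 0.18, adjusted p = 0.0455). Below the minimum, DISP2 had 0.15 to 0.19 RPKM in neuroectoderm, 0.11 to 0.2 in mesendoderm and 0.56 to 0.62 in hESC, and SCUBE1 averaged 0.533 in neuroectoderm, 0.147 in mesendoderm and 0.523 in hESC.

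Among other binding partners LRP2, the megalin receptor that takes up SHH in the forebrain of the mouse, rose in the same order as the co-receptors. It averaged 34.4 RPKM in neuroectoderm, 3.04 in mesendoderm and 0.623 in hESC (4.45 ± 0.13 in neuroectoderm and 1.30 ± 0.13 in mesendoderm, each against hESC, limma adjusted p = 7.89e-08 and 8.83e-05). GPC3, a glypican that competes for ligand, fell in mesendoderm (8.38 against 16.5 RPKM in hESC, -0.89 ± 0.15, limma adjusted p = 0.00159). The secreted decoy HHIP, itself a target, lay between 0.02 and 0.15 RPKM in all 9 libraries and was not tested.

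In the list of ciliary trafficking and scaffold genes 6 of 21 rose and 1 (ARRB1, -0.30 ± 0.09) fell in neuroectoderm against hESC, against 21.9% and 22.3% over all genes. Those with the largest change were ANKMY2 (1.29 ± 0.12), which brings adenylyl cyclases to the cilium, and IQCE (1.10 ± 0.10) and EFCAB7 (0.69 ± 0.10), which tether the EVC complex beside SMO, with the kinase TTBK2 (0.72 ± 0.17). In mesendoderm against hESC 4 of 21 rose and 2 fell, against 17% and 18.1% over all genes, with the arrestins changed most. ARRB1 averaged 29.5 RPKM in mesendoderm against 1.12 in hESC (3.85 ± 0.09, limma adjusted p = 2.51e-08), and ARRB2 averaged 11.7 in mesendoderm against 28.8 in hESC (-1.22 ± 0.18, adjusted p = 8.84e-04). Between the lineages 11 of the 21 were higher and 1 lower in neuroectoderm, against 24% and 24.1% over all genes. The median log2 difference there was 0.38, against -0.0057 over all genes. Of the 22 kinases and degradation factors of GLI proteins 7 rose and 1 fell in neuroectoderm against hESC (21.9% and 22.3% over all genes), all by less than 1 on the log2 scale, with FBXW11, a ubiquitin ligase subunit, lower (-0.64 ± 0.10) and STK36 (0.61 ± 0.10), the catalytic subunit PRKACB of protein kinase A (0.59 ± 0.13) and SPOP (0.54 ± 0.19) higher. In mesendoderm 1 of 22 rose and 1 fell against hESC, lower shares than the 17% and 18.1% over all genes.

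Target genes other than GLI1 and PTCH1 gave no direction common to the 3 comparisons. Of 19 on the list 9 passed the minimum, FOXF1 through mesendoderm alone. In neuroectoderm against hESC none of the other 8 rose and 3 fell, against 21.9% and 22.3% over all genes. They were IGFBP6 (0.310 RPKM in neuroectoderm against 3.78 in hESC, -1.86 ± 0.16, limma adjusted p = 2.18e-05), MYCN (11.05 against 29.01, -1.41 ± 0.33, adjusted p = 0.00737) and RAB34 (38.5 against 73.5, -0.94 ± 0.22, adjusted p = 0.00739). At an unadjusted p under 0.05 by limma, too, 0 of the 8 were higher. FOXF1, a target in the mesoderm of the mouse gut, passed the minimum through mesendoderm alone and is given with no test. It had 5.97, 0.65 and 4.36 RPKM in mesendoderm, against 0.06, 0.05 and 0.03 in hESC, with replicate 2 far below the others. Of the other 8, the cyclins CCND1 (0.74 ± 0.16) and CCND2 (0.68 ± 0.16) rose in mesendoderm against hESC and IGFBP6 fell (-1.25 ± 0.16), against 17% and 18.1% over all genes. Between the lineages RAB34 (-1.13 ± 0.22), CCND2 (-1.04 ± 0.16) and IGFBP6 (-0.61 ± 0.16) were lower in neuroectoderm, and BCL2 (0.56 ± 0.16) was higher. Over all genes 24.1% were lower there and 24% higher. The cyclins, MYCN and IGFBP6 have many other regulators.

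The dorsoventral axis of the neural tube is where graded hedgehog signalling is known best, with ventral genes switched on by it. The genes of this axis are described by level with no test, since LMX1B, the 1 of 12 ventral genes to pass the minimum, and 8 of the 13 dorsal genes that passed it reached it in neuroectoderm alone. LMX1B, which is also found in the dorsal midline, had 3.52 ± 0.563 RPKM in neuroectoderm, 0.0167 ± 0.0058 in mesendoderm and 0.08 ± 0.05 in hESC. The floor plate factor FOXA2 averaged 0.0133 RPKM in neuroectoderm, 0.0367 in mesendoderm and 0.227 in hESC, and the motor neuron factor OLIG2 averaged 0.0233 in neuroectoderm, 0.0333 in mesendoderm and 0.0433 in hESC. NKX2-2 averaged 0.0267 and NKX6-1 0.11 RPKM in neuroectoderm. Among the dorsal genes PAX3 averaged 68.1 ± 17.8 RPKM in neuroectoderm, 0.12 ± 0.0693 in mesendoderm and 0.0633 ± 0.0513 in hESC. The roof plate factor LMX1A averaged 26.2 RPKM in neuroectoderm, 0.0167 in mesendoderm and 0.0667 in hESC, and WNT1 averaged 17.8 in neuroectoderm, 0.0333 in mesendoderm and 0.0933 in hESC. MSX1 and MSX2, which also respond to BMP, were present in both lineages, MSX1 at 25.9 RPKM in neuroectoderm, 23.5 in mesendoderm and 0.0833 in hESC, and MSX2 at 3.77 in neuroectoderm, 36.3 in mesendoderm and 0.08 in hESC. ZIC2 averaged 49.5 RPKM in neuroectoderm, 15.7 in mesendoderm and 47.1 in hESC, and ATOH1 0.0567 in neuroectoderm, 0.00667 in mesendoderm and 0.127 in hESC. PAX3 and MSX1 mark neural crest as well, and their cells of origin were not tested.

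**Figure D4:**
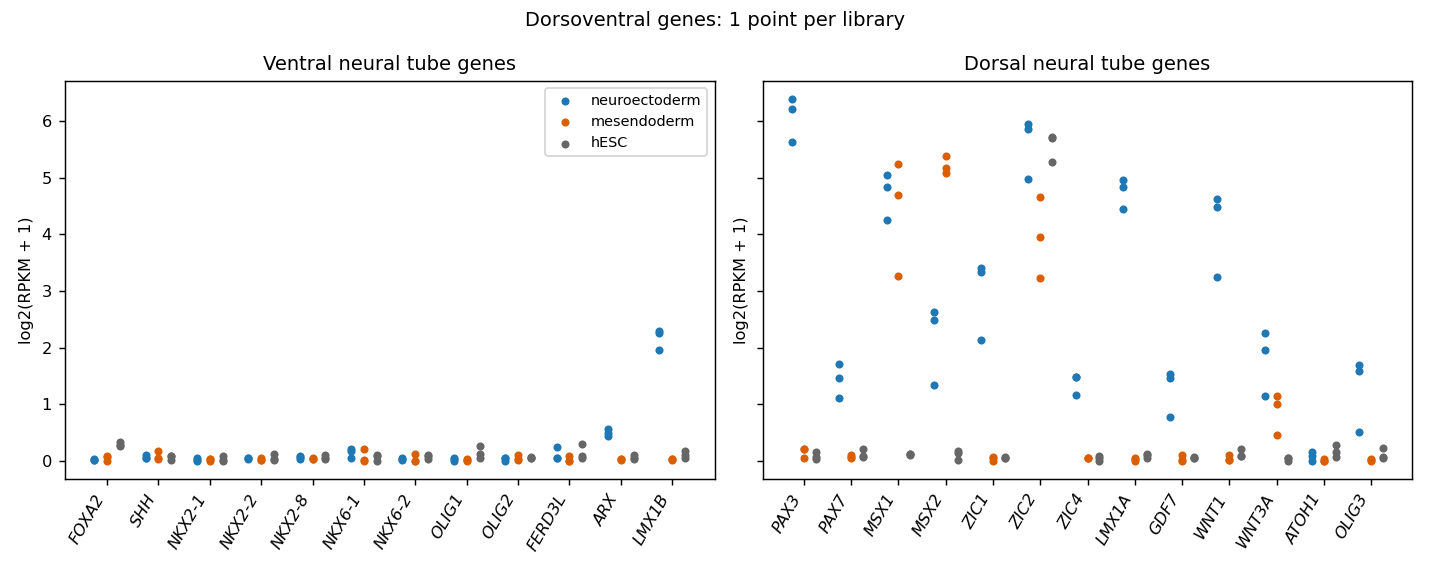
log2(RPKM + 1) of 12 ventral and 13 of 14 dorsal neural tube genes, with a point per library in neuroectoderm, mesendoderm and hESC. The 11 ventral genes other than LMX1B stayed under the minimum for testing, while in neuroectoderm PAX3, LMX1A, MSX1 and WNT1 reach 17.8 to 68.1 RPKM on average.

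Over all 74 listed pathway genes outside the members 58 were tested. Of these, SCUBE2 and FOXF1 passed the minimum through 1 group alone. In neuroectoderm against hESC 18 rose and 5 fell, against 21.9% and 22.3% over all genes. In mesendoderm against hESC 11 rose and 5 fell, against 17% and 18.1%. Between the lineages 24 were higher and 5 lower in neuroectoderm, against 24% and 24.1%. These counts and the medians below still hold SCUBE2, among the 18 and the 24, and FOXF1, among the 11 and the 5 lower between the lineages. The 18 became 11 with small RNA genes removed, 28 without the 3 libraries whose deviations fell with GC content and 27 without neuroectoderm replicate 1 alone. The medians were 0.20, 0.093 and 0.17 on the log2 scale, against -0.024, -0.017 and -0.0057 over all genes.

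Genes with the profile most like that of a member were sought by Pearson correlation over the 9 libraries, among 8045 to 8046 genes that averaged 5 RPKM or more. The points fall into 3 groups, so the values describe likeness of group levels and carry no test. Nearest to GLI3 were ZBTB16 (r = 0.9988), NCALD (0.9987) and MAP2 (0.9982). ZBTB16 averaged 28.9 RPKM in neuroectoderm, 0.15 in mesendoderm and 0.127 in hESC. Nearest to GLI1 were ITPR3 (0.993), HK2 (0.991) and LARP1B (0.989), and ITPR3 averaged 0.6 RPKM in neuroectoderm, 4.08 in mesendoderm and 10.3 in hESC. The nearest to PTCH1 were NRSN2 (0.959), DCAF5 (0.945) and TRIO (0.941), with NRSN2 at 12.2 RPKM in neuroectoderm, 12.5 in mesendoderm and 8.67 in hESC.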

How the data were processed

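The authors deposited RPKM values of 38759 RefSeq transcripts, rounded to 2 decimals, for 9 libraries of ribosome-depleted total RNA made with an Ion Torrent kit, per the labels' protocols. Per the submitters' processing notes, the tools were TopHat, TopHat2 2.0.13 and Bowtie2 and the build was hg19. What counted the reads, whether strand was used and what the denominator was is not given in the sources used here. The members and lists were chosen with earlier results of these data known.

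Libraries were grouped by title. Each symbol was read from its transcript with the highest mean, and 14473 genes that averaged 0.5 RPKM or more were fitted as log2(RPKM + 1) in 1 linear model of the 9 libraries by limma 3.58.1 under R 4.3.3 (variance trend on, Benjamini-Hochberg adjustment). RPKM values are not counts, so no count test was run. The fit was tested on simulated data. Denominators were read from the steps of low values of short RNA genes, where 90.3% to 96.2% of 217 to 267 values per library were within 0.1 of whole reads, and 3 reads on 1 kb amount to 0.0429 to 0.0815 RPKM. Floors cover counting error only. RPKM of exons that overlap another gene is uncertain. Named were all members, SHH, IHH, DHH and HHIP, up to 4 called genes per list and comparison, and the 3 genes nearest in profile to GLI1, PTCH1 and GLI3. ARRB1 in neuroectoderm against hESC, BCL2 between the lineages, DISP2, SCUBE1, ATOH1 and single ventral genes and markers given as levels were named after their values were seen. Values of 2 listed genes are not reported here.

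Same-numbered replicates of neuroectoderm and mesendoderm deviated together, with correlations across genes of 0.392, 0.247 and 0.229. Differently numbered ones did so too, neuroectoderm replicate 2 with mesendoderm replicate 3 (0.152) and replicate 3 with replicate 2 (0.241). These values therefore do not show that the numbers in the titles pair these groups. Same-numbered libraries of hESC gave -0.738 to 0.401, over 0.1 in 1 of 6 pairs, and were not taken as paired. Alternatives were pseudocounts of 0.1 and 0.5, other filters, scalings, transcript choices and fits, a replicate block, and fits that leave out libraries. The block within neuroectoderm and mesendoderm and the single transcript rows were added after the data were seen. Sequences are from RefSeq on GRCh38.p14, and no coordinates of hg19 are printed.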

Additional observations from a re-analysis of the deposited data

How the results depend on the processing

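Of the other pathway genes, 18 rose in neuroectoderm against hESC, and 11 did with small RNA genes removed, 28 without the 3 libraries that deviate with low GC content (neuroectoderm replicate 1, mesendoderm replicate 1, hESC replicate 2), and 13 to 27 with 1 library left out. In mesendoderm against hESC 5 fell, and 9 did with no filter, 8 with only the groups compared, 10 without the 3 libraries, and 5 to 9 with 1 library left out (9 without neuroectoderm replicate 1). Between the lineages 5 were lower in neuroectoderm, and 8 with median of ratios and 8 without the 3 libraries. Values near 0 that did not pass changed sign: GLI3 in mesendoderm against hESC was -0.11 without small RNA, -0.0543 with quantile normalization, -0.0780 without the 3 libraries and -0.0796 to 0.0911 with 1 library left out. GPR161 there was 0.0071 with median of ratios, 0.0151 without the 3 libraries, 0.0012 and 0.0124 with transcripts NM_001267612 and NM_001267614, and -0.0351 to 0.0382 with 1 library left out. PTCH1 between the lineages ran from -0.0862 to 0.183. With the replicate block over all 9 libraries 6 members rose and 1 fell in neuroectoderm against hESC, SMO losing its call (adjusted p = 0.0516). The block within neuroectoderm and mesendoderm alone changed no call among members, with 8 higher and 1 lower. Removing small RNA genes moved the median of all genes to -0.12 in both comparisons with hESC. The causes were not tested. Depth limits the ligands, which rest on 1 to 36 reads.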
